A study of Mus musculus with 6 samples.

Results

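The 46 genes described here encode the machinery that copies DNA and then divides it between daughter cells. They were taken by symbol from a list of replication and mitosis genes, 25 of replication (origin licensing, helicase activation, polymerases, deoxynucleotide supply) and 21 of mitosis (cyclins and kinases, spindle checkpoint, motors and chromosome proteins). All 46 were found, each in 1 row, among the 22298 genes of the mRNA table, and all 46 passed the filter on low counts. The libraries came from GC-1spg, an immortalised mouse line that stands in for type B spermatogonia. Both groups consisted of 3 libraries of total RNA collected 48 h after siRNA transfection: si-NC with a control siRNA, and si-METTL3 with an siRNA against Mettl3, which encodes the catalytic subunit of the nuclear m6A methyltransferase. Both groups share the cell line and the time point, and the labels print the same siRNA sequence for both groups and tag the control as untreated.

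In a cycling cell, origins are licensed in G1 when the origin recognition complex (ORC), CDC6 and CDT1 load the MCM2-7 helicase onto DNA. At the start of S phase MCM10, CDC45 and the GINS complex turn it into a moving helicase, which the polymerases and the PCNA clamp follow. Cyclin-bound CDK1 then drives entry into mitosis, where the Aurora and Polo-like kinases, the spindle checkpoint and kinesin motors separate the chromosomes. Transcription of these genes is timed by the cell cycle: many replication genes are E2F targets, and many mitotic genes carry a CHR element together with CCAAT boxes, read by the DREAM and MYB-MuvB complexes, FOXM1 and NF-Y. Type B spermatogonia divide by mitosis before they give rise to spermatocytes.

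The promoter windows show these elements. RefSeq windows from 250 bases before to 50 bases after the annotated start (build GRCm38.p6) were matched by symbol for 39 of the 46 genes. On both strands, E2F was searched as TTTCCCGC, TTTGGCGC, TTTCGCGC or TTTGCCGC, CHR as TTTGAA or TTCGAA, and the CCAAT box as CCAAT; the TTTGGCGC and TTTCGCGC matches can overlap. With 1 window for each gene, E2F letters were present in 42.9% of the 21 replication windows, 5.56% of the 18 mitosis windows and 2.32% of all 27025 genes of the table. CHR letters were present in 23.8% of the replication windows, 77.8% of the mitosis windows and 19.4% of all genes. CCAAT was present in 71.4% and 88.9%, against 37.9% of all genes. A match describes letters only and is not evidence of binding. Windows of 4 genes are printed up to 10 bases past the start, on the gene's strand with matched letters in capitals: Mcm6 (chr1:128359696-128359955, minus strand) as the replication gene with the most E2F letters, Top2a (chr11:99024180-99024439, minus strand) as the mitosis gene with the most CHR and CCAAT letters, and Orc6 (chr8:85299382-85299641, plus strand) and Prc1 (chr7:80294201-80294460, plus strand) as the 2 genes of the set that were called whichever library was left out.
Mcm6: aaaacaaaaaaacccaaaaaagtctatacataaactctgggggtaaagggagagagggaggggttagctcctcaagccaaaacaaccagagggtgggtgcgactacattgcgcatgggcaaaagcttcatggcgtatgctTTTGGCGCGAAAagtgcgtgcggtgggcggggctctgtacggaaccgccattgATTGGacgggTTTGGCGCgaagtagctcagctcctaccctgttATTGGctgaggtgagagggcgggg
Top2a: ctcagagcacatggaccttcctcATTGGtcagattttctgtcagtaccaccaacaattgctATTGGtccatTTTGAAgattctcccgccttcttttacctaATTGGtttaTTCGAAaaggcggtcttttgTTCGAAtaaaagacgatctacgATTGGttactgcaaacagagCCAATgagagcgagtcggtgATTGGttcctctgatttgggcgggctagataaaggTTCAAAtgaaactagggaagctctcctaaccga
Orc6: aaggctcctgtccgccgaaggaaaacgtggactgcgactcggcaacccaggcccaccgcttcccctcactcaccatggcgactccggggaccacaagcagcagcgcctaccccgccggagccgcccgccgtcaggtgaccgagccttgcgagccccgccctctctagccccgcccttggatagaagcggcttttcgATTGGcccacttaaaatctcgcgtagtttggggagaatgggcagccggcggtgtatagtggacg
Prc1: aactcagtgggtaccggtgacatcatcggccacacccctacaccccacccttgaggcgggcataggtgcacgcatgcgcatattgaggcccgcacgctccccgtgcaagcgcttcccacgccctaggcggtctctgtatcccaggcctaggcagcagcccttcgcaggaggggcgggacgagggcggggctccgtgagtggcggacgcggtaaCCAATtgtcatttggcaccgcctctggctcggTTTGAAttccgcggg

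The Mcm6 window held 3 E2F matches, 2 of them overlapping, and 2 CCAAT boxes. In the Top2a window there were 4 CHR and 6 CCAAT matches. The Prc1 window combined 1 CHR with 1 CCAAT box, and the Orc6 window had 1 CCAAT box and none of the E2F or CHR letters.

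The mRNA table summed to between 22146057 and 37698956 counts for each library, and every gene of the set had at least 494 counts in every library. The labels do not say whether replicates were separate cultures, so p-values measure the spread between these libraries, which may be technical. Mettl3 had 606, 578 and 683 counts in the control libraries, against 142, 134 and 136 after Mettl3 knockdown, 3.46-fold lower (edgeR adjusted p = 0.000579). Among 20 spermatogonial markers only 8 were high enough to be tested. Uchl1, Itga6 and Ccnd2 reached 1 FPKM in every library, whereas Nanos2, Sall4, Sohlh1 and Tex101 had 0 counts in all 6. Of the 8, Gfra1 and Itga6 rose (25%, against 8.67% of all tested genes), and without si-NC replicate 2 only 1 of the list did. No lung, blood, macrophage or endothelial marker was called, but median log2 fold changes were 1.89 (lung), 1.82 (blood and macrophage) and 0.74 (endothelial). Above 0 were 12 of 14 tested lung, 9 of 9 blood and macrophage and 7 of 7 endothelial markers, beside 6940 of all 13082 tested genes. The summed RNA of these markers varied between libraries. The 15 lung markers summed to 11.7, 10.1 and 75.1 CPM (counts per 1000000 counts of a library, after TMM scaling) in si-NC replicates 1, 2 and 3. In si-METTL3 replicates 1, 2 and 3 they summed to 108, 106 and 73.3. For 12 blood and macrophage markers the sums were 5.56, 6.33 and 30.6 against 43.8, 42.5 and 32, and for 8 endothelial markers 15.7, 16 and 24.7 against 28.4, 27 and 24.1. No marker of these 3 lists had 0 counts in every library, and Ager, Rtkn2, Cd68 and Kdr reached 1 FPKM in every library. The source of this marker RNA is not known, and its part in the results below was not tested.

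Most of these genes, but not all, were expressed above the median level of the tested genes. The deposited FPKM values, scaled to transcript length, ranked Pcna, the sliding clamp of the polymerases, highest, with a mean of 273 FPKM over the 6 libraries, above 98.4% of the tested genes. Subunits of the MCM2-7 hexamer followed at 175 (Mcm7), 161 (Mcm6), 142 (Mcm3), 110 (Mcm5), 109 (Mcm2) and 73.9 (Mcm4) FPKM. In total 11 genes had a mean of at least 100 FPKM, among them Top2a (141), the topoisomerase that untangles sister chromatids, Birc5 (137), Fen1 (123), Rrm1 (120) and Aurka (109). The lowest levels belonged to the kinetochore genes Cenpe (3.73) and Cenpf (4.76), the checkpoint kinase gene Bub1 (6.62) and Pola1 (8.73). In that order they lay above 32.9%, 37.2%, 44% and 49.9% of the tested genes. Together the 46 genes took between 0.864% and 0.909% of the counts of a library.

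**Figure D1:**
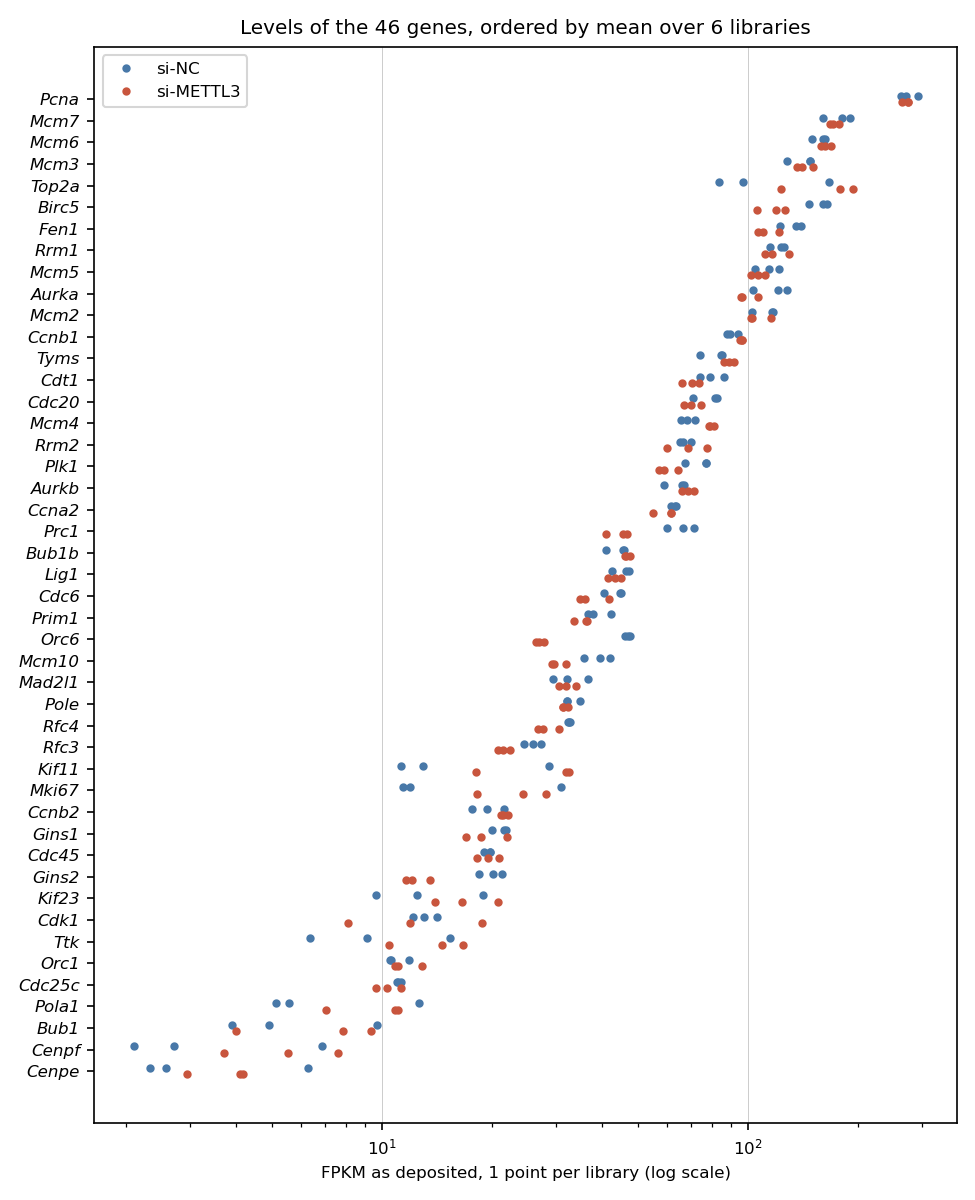
Deposited FPKM of the 46 genes in each of the 6 libraries (log scale, 1 point per library, blue si-NC and red si-METTL3), ordered by the mean over all libraries. Pcna (273) and Mcm7 (175) are at the top and Cenpf (4.76) and Cenpe (3.73) at the bottom; for genes such as Kif11, Mki67 and Cenpf 1 si-NC point lies far to the right of the other si-NC points.

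Between si-METTL3 and si-NC most of these genes did not pass the test. Of the 46, 7 fell (Orc6, Prc1, Gins2, Birc5, Mcm10, Cdt1 and Plk1) and 1 rose (Tyms), at an adjusted p under 0.05 in edgeR's quasi-likelihood test over 13082 genes. This was 17.4% of the set, against 18.9% of all tested genes. In the separate directions, 15.2% of the set fell against 10.2% of all genes, and 2.17% rose against 8.67%. The median log2 fold change was -0.07, beside 0.03 over all tested genes, with -0.09 for replication and 0.06 for mitosis. In a bulk sample, fewer cells in a cycle phase and less RNA in each cell cannot be told apart.

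The 2 groups of libraries did not overlap in CPM for 14 of the 46 genes, 30.4% of the set, against 41.5% of all tested genes. These 14 comprised the 8 called genes and 6 that were not called, Mcm4, Rfc3, Rfc4, Pole, Prim1 and Fen1. How many of the 46 were called turned on which libraries entered the test. Leaving out control replicate 1, 2 or 3 gave 2, 24 and 4 calls, and leaving out knockdown replicate 1, 2 or 3 gave 5, 2 and 2. Over all genes the same 6 fits called 752, 4917, 1624, 1356, 687 and 665, against 2468 with every library. Orc6 and Prc1 alone were called in all 6 of these fits. Over all genes the split was 1134 higher and 1334 lower, and it was 730 higher and 1371 lower with an offset for transcript length in each library, under which 1 gene of the set rose and 6 fell.

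**Figure D2:**
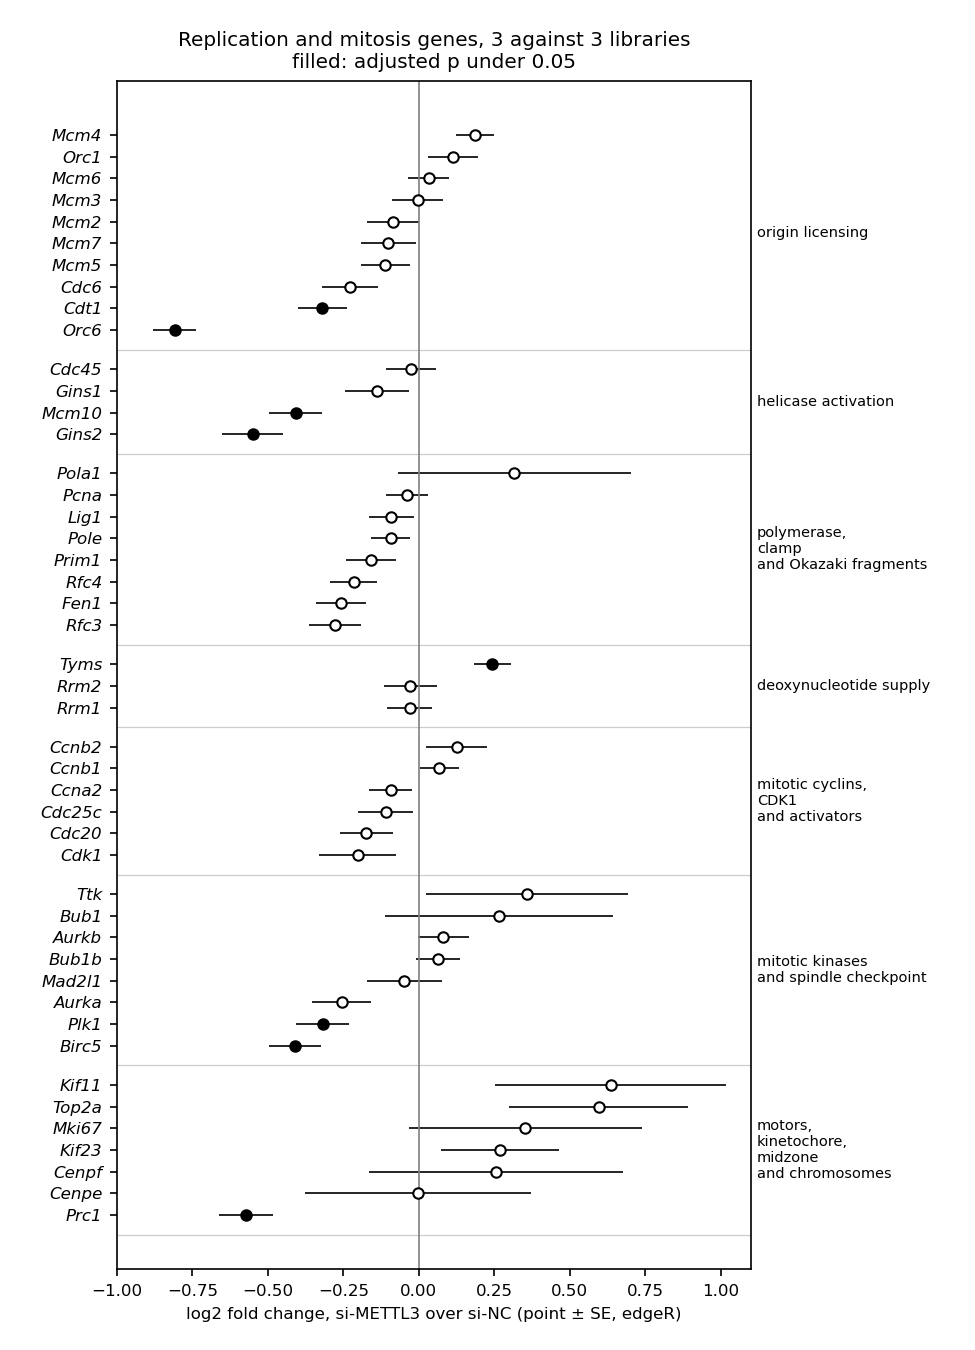
Log2 fold change of si-METTL3 over si-NC (horizontal axis, point ± SE from edgeR) for the 46 genes in 7 role groups, filled where the adjusted p was under 0.05. Filled points are Orc6 (-0.81), Cdt1, Mcm10, Gins2, Birc5, Plk1 and Prc1 on the left and Tyms (0.24) on the right; the SE of Cenpf (0.42) is the widest.

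Of 10 origin licensing genes 2 fell, Orc6 and Cdt1 (20%, against 10.2% of all tested genes). Orc6, which encodes the smallest ORC subunit, had 69.7, 67.9 and 72.2 CPM with the control siRNA and 38.9, 39.9 and 41 with the Mettl3 siRNA. All si-METTL3 libraries lay far below all si-NC libraries, with a spread of 2.16 (SD) in si-NC and 1.08 in si-METTL3. The fall was 1.75-fold (log2 fold change -0.81, SE 0.07, edgeR adjusted p = 0.000966), and without single libraries it ranged from -0.83 to -0.81. The exons of Orc6 share 171 bases with Vps35 on the opposite strand; whether counting used strand is not stated in the labels or headers, and Vps35 itself had a log2 fold change of 0.55 (edgeR adjusted p = 0.172). The large ORC subunit gene Orc1 had 33 ± 1.34 CPM in si-NC and 35.7 ± 1.64 in si-METTL3 (SD, n = 3; log2 fold change 0.11, SE 0.08), and Orc2, Orc3, Orc4 and Orc5, from a list of other replication genes, had 0.01, 0.28, -0.05 and -0.08. Among the 6 ORC genes Orc6 alone passed.

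Cdt1, whose protein brings MCM2-7 to ORC, had 218, 185 and 213 CPM in the controls and 167, 168 and 159 after knockdown. The groups did not overlap, but si-NC replicate 2 stood close to the si-METTL3 libraries. Cdt1 fell by 0.32 on the log2 scale (SE 0.08) at an edgeR adjusted p of 0.036. The call held in 1 of 6 leave-one-out fits, the one without si-NC replicate 2, with adjusted p up to 0.142, and limma on log2(FPKM + 1) gave -0.18 (adjusted p = 0.13). Cdc6, the other loading factor, had -0.23 (SE 0.09, edgeR adjusted p = 0.123), with 158, 140 and 161 CPM against 143, 121 and 127, and did not pass.

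None of the 6 helicase subunit genes passed. Mcm7 had the highest level per length in this role, with 531, 451 and 557 CPM in the control libraries, against 502, 470 and 463 after Mettl3 knockdown. The 2 groups overlapped, si-NC replicate 2 being the lowest library of all (log2 fold change -0.10, 95% interval -0.32 to 0.11). Mcm6 had 0.03 (-0.13 to 0.19), Mcm3 -0.003 (-0.20 to 0.20), Mcm2 -0.09 (-0.29 to 0.12) and Mcm5 -0.11 (-0.30 to 0.08). The hexamer genes thus spanned -0.11 to 0.19. Mcm4 had 287, 301 and 279 CPM with the control siRNA and 323, 327 and 337 with the Mettl3 siRNA, without overlap, and a log2 fold change of 0.19 (0.04 to 0.33, edgeR adjusted p = 0.0757).

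Helicase activation held calls in Mcm10 and Gins2. Mcm10, which encodes a factor that starts origin unwinding, had 181, 153 and 174 CPM in the controls and 137, 123 and 123 after knockdown. Every si-METTL3 library lay below every si-NC library, si-NC replicate 2 being the nearest (1.33-fold lower, log2 fold change -0.41, SE 0.09, edgeR adjusted p = 0.0216). Its call held without si-NC replicate 2 and without si-METTL3 replicate 1, and was lost in the other 4 fits (adjusted p up to 0.0956). Gins2, a subunit of the GINS complex, had 65.7, 55.2 and 63.9 CPM against 45.4, 38.5 and 42.2. The groups were apart (1.46-fold lower, log2 fold change -0.55, SE 0.10, edgeR adjusted p = 0.014), and the call held in 3 of 6 leave-one-out fits, being lost without control replicate 1 and without knockdown replicate 2 or 3 (adjusted p up to 0.0679). In GENCODE M21, 2758 of the 4097 exonic bases of Gins2 are also exonic in Gse1 on the opposite strand, so its level is uncertain; Gse1 rose (0.37, edgeR adjusted p = 0.0288). The other GINS genes Gins1 (-0.14, SE 0.11), Gins3 (-0.10) and Gins4 (0.08) and the helicase cofactor gene Cdc45 (-0.03, SE 0.08) did not pass. Gins1 had 25.8, 27 and 28.1 CPM in the control libraries, against 27.3, 22 and 24.1 after Mettl3 knockdown.

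At the fork none of 8 genes passed. Of the 8 values 7 were below 0, beside 6142 of all 13082 tested genes, but the genes share libraries and are not independent. Pcna had 502, 477 and 545 CPM with the control siRNA and 494, 502 and 486 with the Mettl3 siRNA. The groups overlapped (log2 fold change -0.04, 95% interval -0.20 to 0.12). Rfc3 and Rfc4, subunits of the clamp loader, had -0.28 (SE 0.09, edgeR adjusted p = 0.0629) and -0.22 (SE 0.08, edgeR adjusted p = 0.0961), and Fen1, the nuclease that trims Okazaki fragments, -0.26 (SE 0.08, edgeR adjusted p = 0.0707). In these 3 genes the groups did not overlap, but most of the exonic bases of Fen1 (1909 of 2422) are shared with the antisense gene Gm10143. Fen1 had 378, 327 and 370 CPM in the control libraries, against 321, 292 and 286 after Mettl3 knockdown, so that si-NC replicate 2 again lay lowest of its group. Prim1, the catalytic primase subunit gene, had -0.16 (SE 0.08), Pole, encoding the leading-strand polymerase, -0.09 (SE 0.06), and Lig1, the ligase of Okazaki fragments, -0.09 (SE 0.07). Pola1, the catalytic subunit gene of polymerase alpha, had 34.8, 78.2 and 30.2 CPM in the controls and 40.4, 68.4 and 69.6 after knockdown, a within-group spread far wider than that of the other fork genes (0.32, SE 0.39).

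Deoxynucleotide supply held the only rise. Tyms, which encodes the thymidylate synthase, had 151, 153 and 154 CPM with the control siRNA and 174, 182 and 186 with the Mettl3 siRNA. The control libraries lay within a few CPM of each other and below all si-METTL3 libraries (1.18-fold higher, log2 fold change 0.24 ± 0.06 SE, adjusted p = 0.0342 by edgeR). The call held in 1 of 6 leave-one-out fits, the one without si-NC replicate 2 (adjusted p up to 0.149), and was lost without a filter on low counts. Limma on log2(FPKM + 1) gave 0.13 (adjusted p = 0.231). Rrm1, the large subunit of ribonucleotide reductase and the most abundant of the 3 per length, had 594, 534 and 600 CPM against 597, 537 and 558. Its groups overlapped throughout (-0.03, 95% interval -0.21 to 0.15), and Rrm2, the small subunit, had -0.03 (-0.24 to 0.18).

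**Figure D3:**
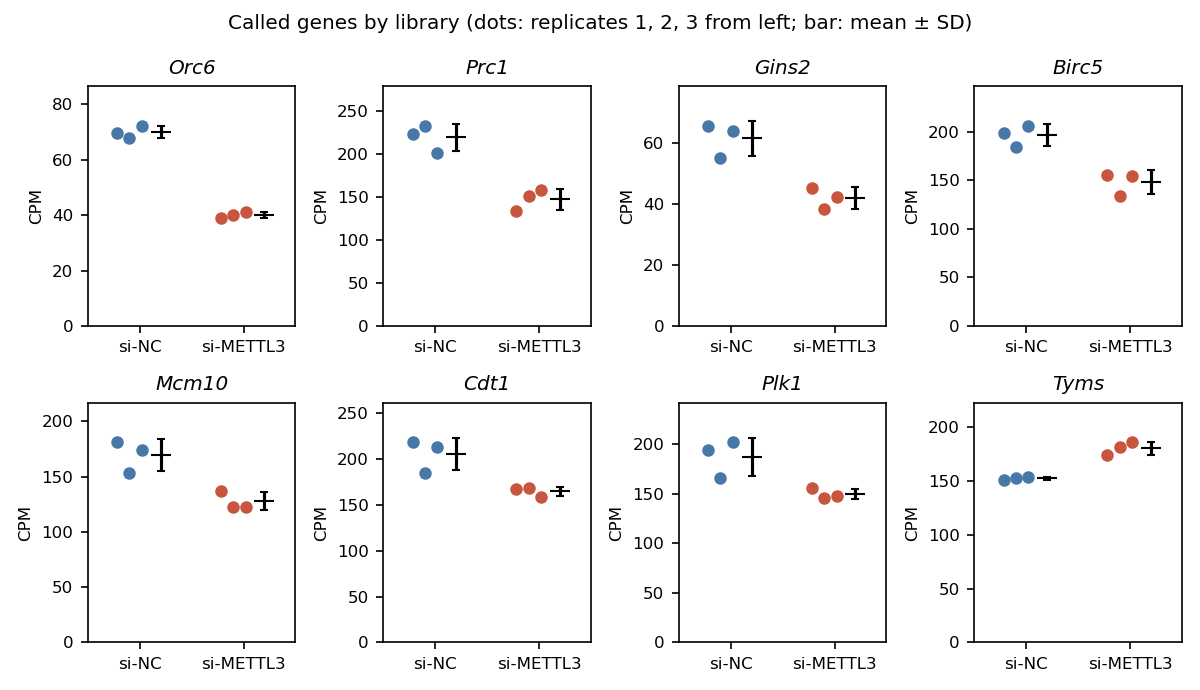
CPM of the 8 called genes in each library (vertical axes from 0; dots are replicates 1, 2 and 3 from left to right, blue si-NC and red si-METTL3; black marks are mean ± SD, n = 3). Relative to their level the groups are widest apart in Orc6, at 69.9 ± 2.16 against 39.9 ± 1.08, while in Cdt1 and Plk1 si-NC replicate 2 is close to the si-METTL3 libraries and Tyms is the gene with higher si-METTL3 values.

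The mitotic cyclins, CDK1 and their activators gave no call among 6 genes. Ccnb1, encoding cyclin B1 and the most abundant of them per length, had 241, 219 and 236 CPM in the controls and 248, 237 and 246 after knockdown. The 2 groups overlapped (log2 fold change 0.07, 95% interval -0.09 to 0.22). Cdk1 itself had 41.8, 40.4 and 44.4 CPM against 38.2, 30.1 and 41.6, si-METTL3 replicate 2 being the lowest (-0.20, -0.50 to 0.10). The other values were 0.13 for cyclin B2 (Ccnb2), -0.09 for cyclin A2 (Ccna2), -0.17 for Cdc20, which activates the anaphase-promoting complex, and -0.11 for the CDK1 phosphatase gene Cdc25c. Each of the intervals of these genes included 0.

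Among the mitotic kinases and checkpoint genes, Birc5 and Plk1 fell. Birc5 encodes survivin, a subunit of the chromosomal passenger complex that recruits Aurora B. It had 199, 184 and 206 CPM in the control libraries, against 156, 134 and 154 after Mettl3 knockdown, with no overlap (1.33-fold lower, log2 fold change -0.41, SE 0.09, edgeR adjusted p = 0.0199). Its call held in 3 of 6 leave-one-out fits and was lost without control replicate 1 and without knockdown replicate 2 or 3 (adjusted p up to 0.0837). Of the other passenger genes, Cdca8, encoding borealin, also fell (-0.55, SE 0.09, edgeR adjusted p = 0.0108), whereas Aurkb (0.08, SE 0.08) and Incenp (-0.07, SE 0.07) did not pass. Plk1, the Polo-like kinase of mitotic entry, had 194, 166 and 202 CPM against 156, 146 and 148 (-0.32, SE 0.09, edgeR adjusted p = 0.0454). The nearest control was again si-NC replicate 2, and the call held only in the fit without it (adjusted p up to 0.159).

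Aurka, the spindle pole kinase, had 293, 233 and 279 CPM with the control siRNA and 237, 217 and 220 with the Mettl3 siRNA, overlapping through si-NC replicate 2 (-0.25, SE 0.10, edgeR adjusted p = 0.112). The spindle checkpoint genes Bub1b (0.06, SE 0.07), Mad2l1 (-0.05, SE 0.12), Bub1 (0.27, SE 0.38) and Ttk (0.36, SE 0.34), the last encoding the kinase MPS1, did not pass. Bub1 and Ttk varied within both groups: Bub1 had 20.6, 35.8 and 16.6 CPM in the controls and 16.4, 38.6 and 32.9 after knockdown. Libraries of both groups thus occupied the top and the bottom of its range.

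In the group of motors, kinetochore, midzone and chromosome proteins 1 of 7 genes passed. Prc1 bundles the antiparallel microtubules of the spindle midzone before cytokinesis. It had 224, 233 and 202 CPM in the control libraries, against 134, 151 and 158 after Mettl3 knockdown. The groups were well apart, and here si-NC replicate 2 was the highest library (1.49-fold lower, log2 fold change -0.57, SE 0.09, edgeR adjusted p = 0.00865). Prc1 was called in all 6 leave-one-out fits (-0.66 to -0.53, adjusted p up to 0.0462). The exons of Prc1 and the opposite-strand gene Rccd1 share 911 of 8225 bases, and Rccd1, at 3.69 ± 0.378 CPM in si-NC and 3.86 ± 0.419 in si-METTL3 (SD, n = 3), was far lower. Kif23, the midzone kinesin gene, had 0.27 (SE 0.20), Kif11, the bipolar spindle kinesin gene, 0.64 (SE 0.38), Cenpe, a kinetochore kinesin gene, -0.002 (SE 0.37), Cenpf 0.26 (SE 0.42), Top2a 0.60 (SE 0.30) and Mki67, the proliferation marker that coats mitotic chromosomes, 0.35 (SE 0.39), and none passed.

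The large errors of these genes went with wide spreads within both groups. Top2a, the most abundant gene of the group per length, had 434, 768 and 366 CPM with the control siRNA and 583, 852 and 935 with the Mettl3 siRNA. In si-NC, replicate 2 stood above replicates 1 and 3, and in si-METTL3 replicate 1 was below the other two (SD 215 and 184 CPM). Mki67 had 141, 323 and 117 CPM against 179, 284 and 278, and Kif11 76.5, 166 and 67.2 against 104, 186 and 192, again with si-NC replicate 2 highest and replicate 3 lowest among the controls. Cenpf was highest of all in si-NC replicate 2, with 34.8, 90.1 and 28.6 CPM against 47.6, 66.7 and 68.9, and Cenpe likewise, with 25.1, 59.8 and 22.7 against 27.6, 40.1 and 39.7.

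Chosen after their values were seen, as those over 0.5 on the log2 scale in si-NC replicate 2 relative to the mean of si-NC replicates 1 and 3, 9 genes shared this pattern: Pola1, Bub1, Ttk, Kif11, Kif23, Cenpe, Cenpf, Top2a and Mki67. Their ratios ran from 0.57 (Kif23) to 1.51 (Cenpf), and those of the 37 others from -0.29 to 0.38. Over all tested genes 2127 of 13082 (16.3%) exceeded 0.5, beside 9 of these 46, so the pattern was not particular to this set. The transcripts of the 9 were longer, with a median of 5860 bases against 2674 for the 37, and lower in GC content, with a median of 43% against 47.8%. Across the 46 genes the ratio had a Spearman correlation of -0.80 with GC content and 0.34 with length (Pearson's r of -0.60 with GC percent and 0.65 with log2 length), a description over genes that share libraries and are not independent. Over all tested genes with a length and GC content, the log2 deviation of a library from the mean was fitted on both jointly. At a given length it moved with 10 points of GC by 0.12, -0.21 and 0.22 in control replicates 1, 2 and 3. In the knockdown replicates it moved by 0.10, -0.07 and -0.16. With an offset for length and GC content in each library, the values of the 9 genes lay between -0.31 (Cenpe) and 0.36 (Top2a). None of the 9 was called with or without it. In the same joint fit, at a given GC content, the deviation moved with each doubling of length by -0.0625, 0.0155 and -0.1371 in control replicates 1, 2 and 3. In the knockdown replicates it moved by 0.0338, 0.0641 and 0.0863, so the length slopes of the groups did not overlap. The part of GC content and length in these ratios and fold changes was not tested.

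**Figure D4:**
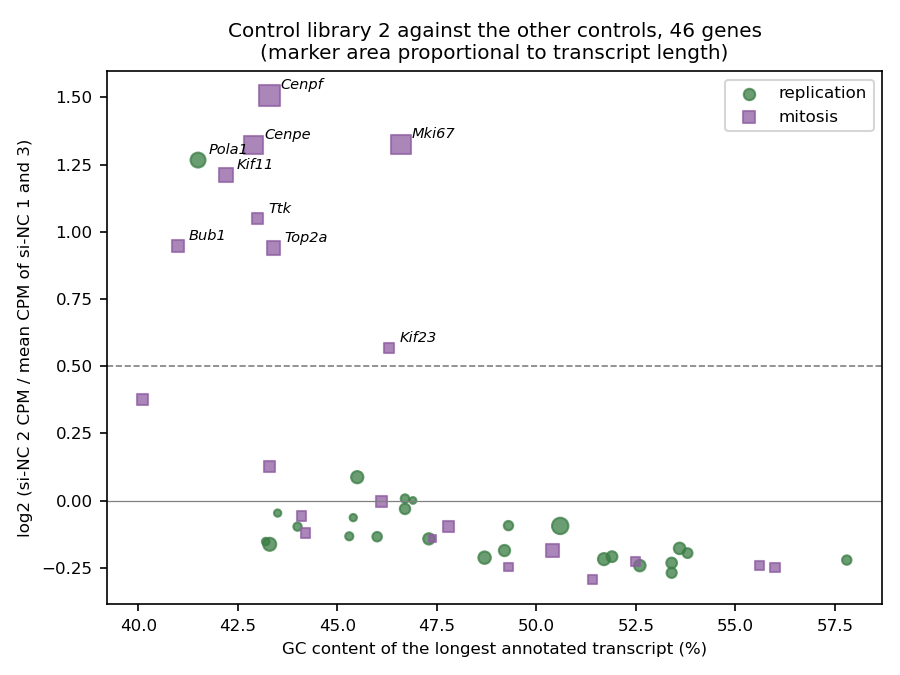
Log2 ratio of CPM in si-NC replicate 2 to the mean of si-NC replicates 1 and 3 (vertical axis) against the GC content of the longest annotated transcript (horizontal axis) for the 46 genes, with marker area proportional to transcript length. The 9 genes above the dashed line at 0.5, from Kif23 (0.57) to Cenpf (1.51), lie at GC contents of 46.6% or less.

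In the fit without si-NC replicate 2 the calls rose over all tested genes, from 18.9% to 36.8%, and in the set as well. In that fit 10 of the 46 genes were higher in si-METTL3 and 14 lower, that is 21.7% and 30.4%, while over all tested genes 17.9% were higher and 18.9% lower. The 9 genes above were chosen for a high value in that library, so leaving it out raises their log2 fold changes by construction, and those are given as a description only: Kif11 had 1.16, Top2a 0.98, Cenpf 0.94, Mki67 0.94, Pola1 0.87, Ttk 0.79, Bub1 0.65, Cenpe 0.58 and Kif23 0.48. These made up 8 of the 10 higher genes, Bub1 being the one not called, and the other 2 were Mcm4 and Tyms. Lower, besides the 7 genes that fell over all libraries, were Cdc6, Mcm5, Mcm7, Rfc3, Fen1, Cdc20 and Aurka, at -0.35 (Aurka) to -0.18 (Mcm5). In these added genes si-NC replicate 2 lay below the mean of the other controls, by log2 ratios of -0.29 (Aurka) to -0.15 (Rfc3). Leaving that library out therefore lowers their values by construction too.

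**Figure D5:**
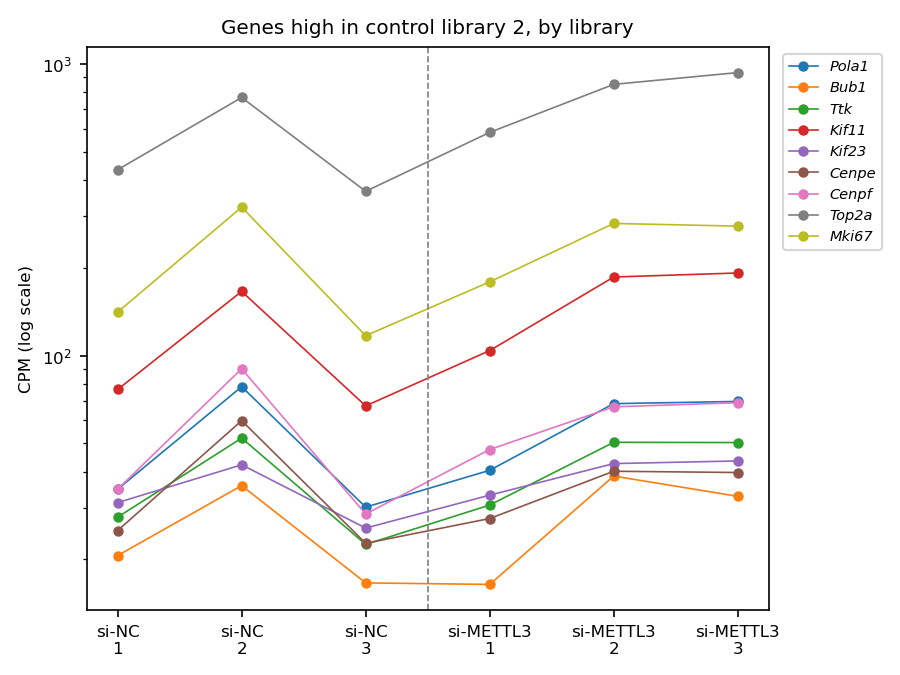
CPM (log scale) of the 9 genes in the 6 libraries; lines only join the points of a gene, and the dashed line parts si-NC from si-METTL3. In each gene si-NC replicate 2 lies above si-NC replicates 1 and 3, as in Top2a (768 against 434 and 366), and si-METTL3 replicate 1 lies below si-METTL3 replicates 2 and 3.

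Summed over the 21 mitosis genes, the level was 2880, 3460 and 2740 CPM in the controls and 2850, 3320 and 3490 after knockdown, so the groups overlapped. The 25 replication genes summed to 6050, 5490 and 6130 CPM against 5780, 5500 and 5540. Here si-NC replicate 2 was the lowest of all libraries, while for the mitosis genes it was the highest of the controls.

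Further genes of the same pathways were read from lists chosen with earlier results of these data known. Of 46 other replication genes, 1 rose and 3 fell (8.7% called, against 18.9% of all tested genes; median log2 fold change -0.04). Dna2, a nuclease-helicase of Okazaki fragment processing, rose (0.52, edgeR adjusted p = 0.0129), and Pole3, an accessory subunit of polymerase epsilon (-0.44, edgeR adjusted p = 0.0306), Rpa2, a subunit of the single-strand binding protein (-0.38, edgeR adjusted p = 0.0279), and the histone chaperone gene Asf1b (-0.32, edgeR adjusted p = 0.0414) fell. These calls held in 4, 2, 2 and 1 of 6 leave-one-out fits, with adjusted p up to 0.151. Of 70 other mitosis genes, 2 rose and 8 fell (14.3% called, again against 18.9%; median -0.07). Besides Cdca8, the largest called falls were in Ube2s (-0.54) and Ube2c (-0.50), which encode the ubiquitin-conjugating enzymes of the anaphase-promoting complex, and the rises were in the kinesin gene Kif14 (0.51) and the phosphatase gene Cdc25b (0.39). None of these 5 calls held in more than 3 of 6 leave-one-out fits.

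Of 23 regulators in the E2F, RB and DREAM list, 3 rose and 3 fell (26.1% called, against 18.9% of all tested genes; median 0.06). Rbl2, encoding the DREAM repressor subunit p130, had 22.5, 25 and 22.6 CPM in the control libraries, against 34.5, 34.9 and 40.4 after Mettl3 knockdown. The groups were apart, and the rise passed in all 6 leave-one-out fits (0.65, SE 0.10, edgeR adjusted p = 0.00818). The E2F partner genes Tfdp2 (0.62) and Tfdp1 (0.29) rose as well. Mybl2, encoding the B-MYB of the MYB-MuvB complex (-0.44, edgeR adjusted p = 0.013), Foxm1 (-0.31, edgeR adjusted p = 0.0288) and the repressor gene E2f6 (-0.45, edgeR adjusted p = 0.031) fell. Their calls held in 3, 1 and 1 of 6 leave-one-out fits, and those of Tfdp2 and Tfdp1 in 2 each, with adjusted p up to 0.134.

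Of 20 genes of the replication and damage checkpoints, 4 fell and none rose (20% called, against 18.9% of all tested genes; median -0.09). Rad9a and Hus1 encode subunits of the checkpoint clamp, which is loaded at stalled forks. Rad9a had 192, 163 and 190 CPM with the control siRNA and 104, 102 and 94.8 with the Mettl3 siRNA, with no overlap, and its fall (-0.86, SE 0.09, edgeR adjusted p = 0.00184) passed in all 6 leave-one-out fits. Hus1 fell as well (-0.52, edgeR adjusted p = 0.0183; called in 4 of 6 fits), while Rad1, the remaining clamp subunit gene, had -0.11 (SE 0.09) and did not pass. Outside the rule for named genes and chosen after its values were seen, the CDK phosphatase gene Cdc25a also fell (-0.30, edgeR adjusted p = 0.0302; called in 2 of 6 fits).

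The lncRNA table listed 36 noncoding transcripts, by GENCODE M21 all processed transcripts, from 18 of the 46 loci, and 8 of them had 0 counts in every library. The labels and headers do not say how reads were divided between these and the coding transcripts of a locus. The 6 with a mean of at least 50 counts, a bound set after the values were seen, came from the Gins2, Cdt1 and Top2a loci and are described without a test. From the Gins2 locus, ENSMUST00000126094 had 85, 64 and 83 counts in the controls and 36, 28 and 22 after knockdown, lower in every si-METTL3 library as the gene itself was. The Cdt1 transcript ENSMUST00000212053 had 103, 75 and 5 counts in the control libraries, against 119, 143 and 103 after Mettl3 knockdown, si-NC replicate 3 standing alone. Of the 4 Top2a transcripts the largest, ENSMUST00000154332, had 560, 776 and 567 counts against 533, 607 and 624, or 16, 25.7 and 15.4 against 16.7, 27 and 25.3 CPM of the mRNA libraries. On that scale si-NC replicate 2 and si-METTL3 replicates 2 and 3 were high and the other 3 libraries low, as for Top2a itself. Of the other 3 Top2a transcripts, ENSMUST00000139730 kept that split, with 8.98, 10.5 and 7.82 CPM against 8.73, 10.8 and 14.1. ENSMUST00000139460 kept it too, with 3.79, 5.37 and 3.6 CPM against 2.88, 4.32 and 6. ENSMUST00000129777 did not, with 1.43, 1.86 and 1.58 CPM against 1.66, 1.34 and 2.84, si-METTL3 replicate 2 being the lowest library.

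By the adjusted p of the authors' deposited table, 8 of the 46 genes were under 0.05, beside 2649 of all 22298 genes of the mRNA table. All 8 were the genes called here, but both tests used the same libraries and are not independent. The authors' deposited table gives log2 fold changes, taken from FPKM means, of -0.80 for Orc6, -0.57 for Prc1, -0.69 for Gins2, -0.42 for Birc5, -0.37 for Mcm10, -0.29 for Plk1, -0.19 for Cdt1 and 0.13 for Tyms.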

How the data were processed

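RNA levels of 6 libraries of GC-1spg cells were analysed, grouped by their titles. Per the file headers, the authors deposited whole-number counts and FPKM values for each gene and library, group means, a log2 fold change of the FPKM means, and p-values with adjusted p-values from a test not given in the sources used here. The submitters' processing notes name the build mm9 and the tools RSEM, StringTie, Bowtie2 and fastp, without versions. The deposited mRNA counts entered edgeR 4.0.16 (R 4.3.3) with TMM scaling, filterByExpr and a quasi-likelihood fit of the group over 13082 genes, with Benjamini-Hochberg adjustment and a threshold of 0.05. SE is the log2 fold change over the square root of F, and intervals are 95%. Transcript length is that implied by counts and FPKM; GC content is of the longest GENCODE M21 transcript (GRCm38), found for 22255 of 22298 genes. Coordinates and promoter sequences are RefSeq's, GRCm38.p6, and were not converted.

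The 46 genes, the further lists and the motifs were chosen with earlier results of these data known. All 46 are named; values for every library go to called genes, to the most abundant gene of each role and to genes a result turns on, and of the other lists up to 3 called genes in each direction are named, except 1 that is not reported here. Alternatives were DESeq2 1.42.0, limma 3.58.1 with voom or on log2(FPKM + 1) and log2(FPKM + 0.1), other size factors, no filter, offsets for length or for length and GC content (the latter added after the data were seen), a replicate block, and leaving out each library. The test was checked on simulated counts with known changes. Figures were drawn with matplotlib 3.10.9.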

Additional observations from a re-analysis of the deposited data

How the results depend on the processing

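Against 8 calls among the 46 genes and 2468 over all genes, the fits that left out 1 library gave 2 to 24 and 665 to 4917. Limma on log2(FPKM + 1) with no filter gave 5 calls among the 46, with 11.3% of all genes called. The offset for length and GC content, chosen after seeing the data, gave 15 (3 higher and 12 lower). Besides the 8 genes of the main fit, these were Cdc6, Pole, Fen1, Ccna2 and Mad2l1, lower, and Ccnb2 and Aurkb, higher. Under that offset 28.3% of all tested genes were called, against 18.9% in the main fit. DESeq2, voom, other size factors, no filter on counts, the remaining FPKM fits and the length offset gave 7 to 9. In these fits 12.7% to 21.2% of all tested genes were called. The FPKM fits with a filter called Mcm4 and Rfc3 in place of Cdt1 and Tyms. Of 736 values of single genes under an alternative, 671 kept their side of the threshold, 37 lost a call and 27 gained one. The remaining 1 is Cenpe, not called and near 0 with all libraries (-0.002), at -0.27 to 0.58 without single libraries. It was called with the opposite sign at 0.58 without si-NC replicate 2. Cenpe was among the 9 genes chosen for a high value in that library, so leaving it out raises its log2 fold change by construction. Why that library was high was not tested. Of the values that kept their side, 35 changed sign with no call in either fit.

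Libraries with the same replicate number correlated in their deviations from the group means at 0.07, 0.20 and -0.31 for numbers 1, 2 and 3, so the numbers were not taken to pair them. With the replicate block 5 genes of the set (Orc6, Mcm10, Gins2, Birc5 and Prc1) and 1273 of all genes were called. The lowest count of the set in a library was 494. With 3 libraries in a group, a value that did not pass does not show that a gene did not change.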
